A study of Mus musculus with 6 samples.

Results

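Digestion and uptake of dietary sugar in the mouse small intestine was followed through 8 genes, namely the disaccharidase genes Lct, Sis, Mgam and Treh, the sugar transporter genes Slc5a1, Slc2a2 and Slc2a5, and the fructokinase gene Khk. They were taken by symbol, with earlier results of these data known, and make up 8 of the 32285 features counted. Single cells of the small intestinal epithelium came from IE-HuR-/- mice, made by crossing HuR fl/fl mice with mice that carry Cre under the villin promoter, and from HuR fl/fl littermates without Cre, all on the C57BL/6 background and 6 to 8 weeks old. Cre driven by villin acts in epithelial cells of the intestine, so that other cells of the mucosa keep HuR. Each genotype was represented by 3 droplet libraries, which count each RNA molecule once by its molecular tag (UMI). The labels call the genotypes wild-type and HuR knockout and give normal feeding, whereas the methods state that food was withheld before experiments, which bears on genes that respond to sugar. The comparison asks how the loss of HuR, an RNA-binding protein that acts on the stability and translation of bound mRNAs, goes with the RNA levels of the sugar genes.

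Sugars are absorbed as monosaccharides. Disaccharidases anchored in the brush border of enterocytes cleave lactose, sucrose, maltose and trehalose, and transporters in the apical and basolateral membranes then carry the products into and out of the cell. Enterocytes are born in the crypts, climb the villus and are shed at its tip, and many absorptive genes are used over only a stretch of that path.

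Lct (ENSMUSG00000026354) encodes lactase and lies on the minus strand at chr1:128284756-128328318 of GRCm38, the genome build of all positions given here. Sis (ENSMUSG00000027790, chr3:72888557-72967863, minus strand) encodes sucrase-isomaltase, the major enzyme of sucrose and starch end-products. Mgam (ENSMUSG00000068587, chr6:40628831-40769123, plus strand) encodes maltase-glucoamylase. Treh (ENSMUSG00000032098, chr9:44673233-44686305, plus strand) encodes trehalase, which splits the fungal and insect sugar trehalose. Slc5a1 (ENSMUSG00000011034, chr5:33104219-33162870, plus strand) encodes SGLT1, the apical sodium-coupled carrier of glucose and galactose. Slc2a2 (ENSMUSG00000027690, chr3:28697903-28731359, plus strand) encodes GLUT2, the facilitative carrier through which glucose, galactose and fructose leave the cell. Slc2a5 (ENSMUSG00000028976, chr4:150119283-150144169, plus strand) encodes GLUT5, the apical fructose carrier. Khk (ENSMUSG00000029162, chr5:30921431-30931248, plus strand) encodes ketohexokinase, which phosphorylates fructose inside the cell.

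The promoters of the genes are shown because genes for several candidate regulators of intestinal sugar genes are measured in the same cells. All 8 genes matched the RefSeq promoter table (GRCm38.p6, 250 bases before to 50 after the start of transcription). Sequences run 5′ to 3′ on the strand of the gene, and capitals mark matches to any of 4 motifs on either strand. A CDX-type motif was searched by the letters TTTAT. An HNF1-type motif was searched by the letters GTTAAT. The letters AGATAA were searched for factors of the GATA family. A last search was for CACGTG, the core letters of the E-boxes to which ChREBP binds. The following 4 promoters belong to Lct and Slc2a2, the members with the largest differences between labels, and to Sis and Mgam, the related disaccharidases with small ones.
Lct (chr1:128328269-128328568): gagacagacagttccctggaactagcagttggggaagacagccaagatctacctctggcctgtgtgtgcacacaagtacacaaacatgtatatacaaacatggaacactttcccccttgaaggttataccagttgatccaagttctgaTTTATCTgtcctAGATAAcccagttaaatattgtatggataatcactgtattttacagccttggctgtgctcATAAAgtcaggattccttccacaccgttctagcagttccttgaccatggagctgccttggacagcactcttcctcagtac
Sis (chr3:72967814-72968113): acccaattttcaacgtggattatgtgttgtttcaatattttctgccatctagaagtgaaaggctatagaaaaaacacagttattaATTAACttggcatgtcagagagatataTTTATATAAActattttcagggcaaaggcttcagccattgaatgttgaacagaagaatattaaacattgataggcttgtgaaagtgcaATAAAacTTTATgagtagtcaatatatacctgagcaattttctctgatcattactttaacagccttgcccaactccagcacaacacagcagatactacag
Mgam (chr6:40628581-40628880): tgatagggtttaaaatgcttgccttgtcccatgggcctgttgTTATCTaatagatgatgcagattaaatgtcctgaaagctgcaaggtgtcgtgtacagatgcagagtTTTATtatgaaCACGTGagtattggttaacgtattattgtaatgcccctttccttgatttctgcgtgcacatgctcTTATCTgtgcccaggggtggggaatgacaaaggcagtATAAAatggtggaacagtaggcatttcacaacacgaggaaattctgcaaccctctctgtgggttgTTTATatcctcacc
Slc2a2 (chr3:28697653-28697952): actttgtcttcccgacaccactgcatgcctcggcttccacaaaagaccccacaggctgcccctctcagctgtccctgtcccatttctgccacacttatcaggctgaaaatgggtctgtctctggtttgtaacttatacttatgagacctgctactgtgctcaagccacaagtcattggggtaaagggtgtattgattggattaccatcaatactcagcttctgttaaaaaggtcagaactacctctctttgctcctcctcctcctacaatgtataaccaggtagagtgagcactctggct

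The CDX-type letters were found 2 times in the Lct promoter, 4 times in that of Sis and 3 times in that of Mgam, and in none of the other 5 members. Of all 32851 promoters in the table, 40.0% held them. The GATA-type letters were found 2 times each in Lct and Mgam (11.2% of all promoters held them). In Lct the more distal of these matches overlaps the distal CDX-type match, and the other stands apart. The HNF1-type letters stood once in Sis and once in Khk (7.10% of all promoters), and the E-box once each in Mgam, Slc5a1 and Khk (7.15%). The windows of Slc2a2, Treh and Slc2a5 held none of the letters searched. These matches describe letters in a window and say nothing about binding.

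Because HuR binds AU-rich RNA, the 3′ untranslated regions of GENCODE vM21 transcripts were searched for the pentamer ATTTA. It was found 5 times in Slc2a2, 3 times in Mgam, 3 times in Slc5a1 and 2 times in Sis, and not in Lct, Treh, Slc2a5 or Khk. Per kilobase of the region it stood at 4.62 in Sis, 3.58 in Mgam, 1.61 in Slc5a1 and 1.29 in Slc2a2. Of 20586 genes with such a region, 61.7% held at least 1 pentamer, and the median length of the region was 802 bases. The longer TATTTAT was found only in Slc2a2 among the members, against 25.5% of all genes, at base 2134 of a region of 3883 bases, and is shown in capitals within its RNA surroundings.
Slc2a2 AU-rich heptamer: aagauguaucUAUUUAUuuugacugac
Lct, which had the largest difference in enterocyte-like cells, has a 3′ untranslated region of 363 bases without the pentamer, and Slc2a2, which had the next largest, has the longest of the 8.

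The 6 libraries held 60706 barcodes and between 59518012 and 91818560 UMIs each, and 29866 barcodes with under 2000 UMIs were set aside. Cells were assigned by gates on summed marker genes that hold no member, which gave 17127 enterocyte-like cells, 1033 goblet-like, 244 enteroendocrine-like, 131 tuft-like and 107 progenitor-like cells. Enterocyte-like cells numbered between 2076 and 4298 per library, with 38819841 to 59831793 UMIs. No pair of libraries agreed within sampling noise. Libraries shared between 22 and 44 barcodes per pair, at most 0.440% of the smaller library. Nothing in the labels says that replicates are separate animals, whereas the study describes its single-cell values as means from 3 animals. The p values weigh label differences against the spread between these libraries, with the spread of each gene drawn towards that of other genes. With 3 libraries per label, very small p values therefore rest in part on other genes.

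Elavl1, the gene that encodes HuR, served as the check of the labels. Levels are given as CPM, UMIs per 1000000 UMIs of the class in a library, and for comparisons between labels as scaled CPM, which are CPM divided by the TMM factor of the library. In enterocyte-like cells Elavl1 was at 26.5, 28.4 and 26.2 scaled CPM in the littermate libraries and at 31.4, 31.6 and 32.2 scaled CPM in the libraries labelled IE-HuR-/-. The log2 fold change was 0.23 (SE 0.0493, edgeR adjusted p = 0.000162) and 0.04 without TMM scaling, at which it was not called. Elavl1 RNA was thus not reduced in these libraries. Counts per gene do not show which exons were read, so this level does not test the deletion, and every direction below rests on the labels.

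The enterocyte-like cells of the IE-HuR-/- libraries had lower levels of 6 of the 8 sugar genes, and none was higher. Lct and Slc2a2 fell most, by 40.9% and 35.0%. Khk, Slc2a5, Slc5a1 and Mgam fell by 15.2%, 13.0%, 10.1% and 6.91%, and neither Sis nor Treh passed the test. Among all 12454 genes tested, 60.6% were called at an adjusted p under 0.05, with 30.5% lower and 30.1% higher, so that small differences were called often in these sums.

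Lct, the lactase gene, was at 1098, 1024 and 1093 scaled CPM in the littermate libraries and at 646, 626 and 630 scaled CPM in those labelled IE-HuR-/-. The lowest littermate library stood well above the highest of the others. This gave a log2 fold change of −0.76 (SE 0.0424, edgeR adjusted p = 5.0e-16).

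Sis was at 1853, 1674 and 1737 scaled CPM in the littermate libraries and at 1796, 1816 and 1872 scaled CPM in the others, and the labels overlapped. On the log2 scale the change was 0.06 (95% interval −0.03 to 0.15, edgeR adjusted p = 0.265). Treh was at 363, 356 and 402 scaled CPM against 369, 358 and 361 scaled CPM, also with overlap. Its log2 fold change was −0.04 (95% interval −0.13 to 0.04, edgeR adjusted p = 0.392), so that a fall of the size seen for Lct or Slc2a2 lay outside the interval of both genes.

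Mgam, the maltase-glucoamylase gene, was at 1447, 1321 and 1362 scaled CPM against 1302, 1254 and 1288 scaled CPM. The labels did not overlap, but the nearest libraries stood at 1321 and 1302 scaled CPM. Its log2 fold change of −0.10 (SE 0.0439, edgeR adjusted p = 0.0427) was lost without littermate replicate 1 (adjusted p = 0.167), without any 1 of the libraries labelled IE-HuR-/- and in cells of at least 5000 UMIs.

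Slc5a1, the SGLT1 gene, was at 2228, 2186 and 2279 scaled CPM in the littermate libraries and at 2040, 1966 and 2012 scaled CPM in the others, without overlap. The log2 fold change was −0.15 (SE 0.0433, edgeR adjusted p = 0.00303).

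Slc2a2, the GLUT2 gene, was at 455, 412 and 415 scaled CPM in the littermate libraries and at 274, 270.4 and 289 scaled CPM in the others. As for Lct, the libraries of the labels did not overlap. This gave a log2 fold change of −0.62 (SE 0.0436, edgeR adjusted p = 1.41e-13).

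Khk, whose product traps fructose as its phosphate, was at 284, 319 and 332 scaled CPM against 264, 258 and 269.9 scaled CPM. Its log2 fold change was −0.24 (SE 0.0472, edgeR adjusted p = 0.000111). Slc2a5, which brings fructose into the cell, was at 106, 109 and 120.0 scaled CPM against 97.0, 94.0 and 99.8 scaled CPM. These genes of fructose uptake and use showed no overlap between labels, with gaps narrower than the range of the littermate libraries. The log2 fold change of Slc2a5 was −0.20 (SE 0.0447, edgeR adjusted p = 0.000279).

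Markers of other cells were also summed in enterocyte-like cells, on the same scale. The 8 goblet markers summed to 555 to 892 scaled CPM in the littermate libraries and 644 to 1058 in the others, with 1 gene higher and 0 lower without overlap. The 11 T or NK markers summed to 36.3 to 64.9 against 79.3 to 91.2 scaled CPM, with 6 higher and 0 lower. The 16 progenitor markers summed to 74.3 to 80.1 against 72.4 to 77.3 scaled CPM, with 1 higher and 2 lower, and overlapped, whereas in unscaled CPM they stood at 79.7 to 85.5 against 68.4 to 72.0 CPM. Of the 12 enterocyte markers, which defined the class, 8 were higher and 2 lower without overlap. The part of these markers in the differences was not tested.

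Without overlap between the labels, 6 of the 8 members were lower, against 33.0% of all genes tested. The scale matters for the small values. TMM factors were 1.07 in each littermate library and between 0.931 and 0.944 in the others, and without them the median log2 fold change of all genes moved from −0.02 to −0.21. All 8 members were then lower and called, where 6346 of the 12454 genes tested were called lower and 1898 higher. Sis was then at −0.13 and Treh at −0.24 on the log2 scale, and the direction of Sis was reversed. Lct and Slc2a2 differed by far more than this shift.

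**Figure D1:**
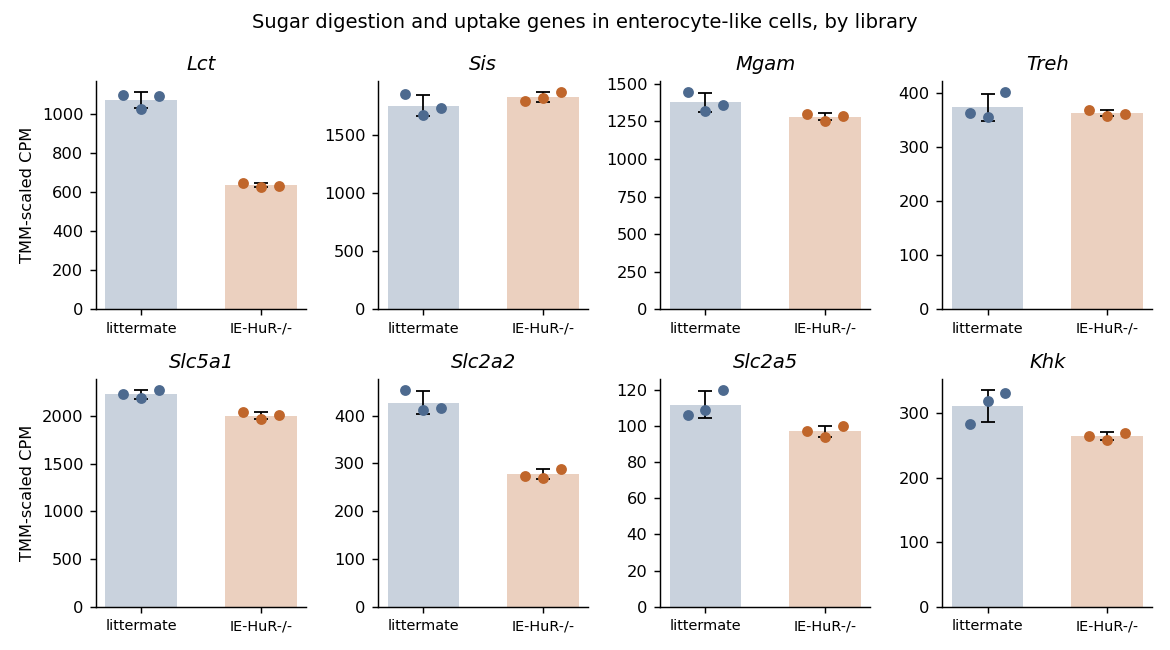
TMM-scaled CPM (vertical axes, from 0) of the 8 genes in enterocyte-like cells of the 3 littermate and 3 IE-HuR-/- libraries. Points are libraries, bars are means and whiskers are SD. Lct and Slc2a2 show the widest gaps between labels (1024 to 1098 against 626 to 646 for Lct), while the points of Sis and Treh overlap.

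The share of enterocyte-like cells with a UMI was lower in the IE-HuR-/- libraries for every member, without overlap. At 2000 UMIs per cell Sis was detected in 69.7 to 76.5% against 64.4 to 67.5%. Treh was detected in 36.1 to 38.6% against 29.8 to 33.1%. These shares carry no TMM scaling. After each cell was thinned to 2000 UMIs, Lct was detected in 60.8 to 67.0% of the enterocyte-like cells of the littermate libraries and in 39.3 to 43.1% in the others (79.2 to 85.3% and 62.7 to 66.1% unthinned). Slc2a2 was detected in 32.6 to 36.0% against 19.5 to 22.0% (57.1 to 60.8% and 38.7 to 42.0% unthinned). T or NK-like cells, which should lack both genes, gave 13.7 to 32.8% against 7.08 to 8.97% for Lct and 7.72 to 16.7% against 3.50 to 4.09% for Slc2a2, so that this background also differed with the label. Whether it came from RNA free in the suspension or from barcodes that held more than 1 cell was not tested. The median depth was 10129 UMIs per enterocyte-like cell and 5025 UMIs per T or NK-like cell.

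Along the villus, most sugar genes were highest near the base. Enterocyte-like cells were ordered by the share of tip landmarks (such as Ada and Clca4a) among tip and lower-villus landmarks (such as Gna11, Lypd8 and Ccl25), which hold no member, and split within each library into 5 zones of equal cell number, from zone 1 at the bottom to zone 5 at the tip. Position was assigned to 14619 cells, and 2508 with under 10 landmark UMIs were left out. Between zone 5 and zone 1, 7 of the 8 members were lower towards the tip and 1, Treh, was higher, where 44.4% of all genes tested were lower and 38.7% were higher.

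Slc2a2 had one of the steepest slopes. Its littermate libraries went from 690.4, 615 and 633 scaled CPM in zone 1 to 46.8, 50.3 and 37.9 scaled CPM in zone 5, and the libraries labelled IE-HuR-/- went from 483, 544 and 487 to 12.1, 13.5 and 18.7 scaled CPM. The log2 fold change of the upper against the lower zone was −4.39 (SE 0.301, edgeR adjusted p = 1.71e-05). At the tip, however, the gene lay below its level in T or NK-like cells of the same library in all 6 libraries. In unscaled CPM it was at 31.7 to 43.7 CPM in zone 5 of the littermate libraries, where T or NK-like cells held 37.6 to 86.3 CPM, and at 8.53 to 13.2 CPM against 16.2 to 20.7 CPM in the others. The zone 5 level of Slc2a2 is therefore not told apart from background here. The size of its fall to zone 5 is uncertain for that reason. Median depth was 11590 to 18240 UMIs per zone 5 cell and 4377 to 5722 UMIs per T or NK-like cell. The part of this depth difference in the comparison was not tested. In zone 4 it was at 2.20 to 4.82 times the T or NK-like level, and with zone 4 in place of zone 5, an alternative added after the values had been seen, the log2 fold change was −2.41 (edgeR adjusted p = 0.000357).

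Sis fell as well, and all its libraries formed 1 band. The gene was at 3303, 2863 and 3197 scaled CPM in zone 1 and at 239, 297 and 183 scaled CPM in zone 5 of the littermate libraries. In those labelled IE-HuR-/- it was at 3249, 3532 and 3295 and at 199, 227 and 234 scaled CPM. It fell by 3.85 on the log2 scale (SE 0.115, edgeR adjusted p = 1.82e-10), and by 2.40 with zone 4 in place of zone 5. Its zone 5 CPM lay at or below the T or NK-like level in 4 of 6 libraries. At the tip Sis was thus also not told apart from background. The other 6 members stood above the T or NK-like level in zone 5 of every library. The ratio ran from 1.30 for Mgam to 25.6 for Treh.

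Slc2a5, Mgam and Khk were also highest in zone 1 of every library, with log2 fold changes of −2.71, −2.51 and −2.46 towards the tip. Slc5a1 fell by 2.04 on the log2 scale, and it was highest in zone 2 of 5 libraries and in zone 1 of the other. Lct rose and then fell: it was highest in zone 2 of all 6 libraries, at 1190 to 1345 scaled CPM in the littermate libraries and at 772 to 844 scaled CPM in the others. Its drop of −0.89 from zone 1 to zone 5 (SE 0.0476, edgeR adjusted p = 3.74e-09) turned to a rise of 0.32 when Apoa4 and Apoa1, which are tip genes that also mark enterocytes, were added to the landmarks.

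Treh ran the other way. It was lowest in zone 1 of every library, at 299, 319 and 343 scaled CPM in the littermate libraries and at 296, 300 and 282 scaled CPM in the others. It was highest in zone 3 of each littermate library, at 390 to 469 scaled CPM, and in zone 4 or 5 of the others. On the log2 scale the change was 0.30 (SE 0.0560, edgeR adjusted p = 0.000352) and −0.25 without TMM scaling, which moved the median of all genes from −0.11 to −0.66 in this comparison, so that the rise of Treh holds only relative to other genes.

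**Figure D2:**
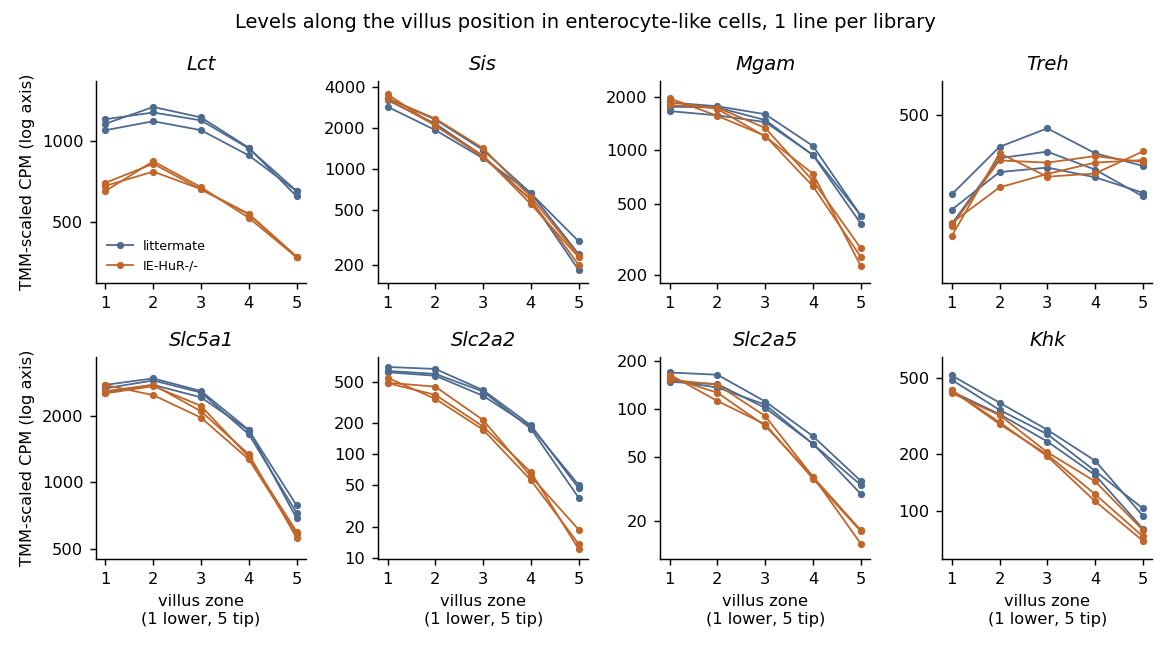
TMM-scaled CPM (vertical log axes) of each gene in the 5 villus zones of enterocyte-like cells (1 lower villus, 5 tip), with 1 line per library in the colour of its label. All genes but Treh end lowest at the tip, and the lines of Slc2a2, Slc2a5 and Mgam spread apart by label towards the tip.

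The difference between labels was not the same at all heights. Slc2a5 and Mgam differed more at the tip than at the base, and Slc2a2 more in zone 4 than in zone 1. In a test of the difference itself, 5 of the 8 members were more strongly lower in zone 5 than in zone 1, and 1 was the other way, against 11.2% and 8.91% of all genes tested.

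For Slc2a2 the log2 fold change of IE-HuR-/- against littermate was −0.38 in zone 1, −0.68 in zone 2, −1.05 in zone 3, −1.62 in zone 4 and −1.69 in zone 5. The difference between the ends was −1.32 (SE 0.194, edgeR adjusted p = 0.00300). The value in zone 5 was not told apart from a difference in background. T or NK-like cells of the same libraries held Slc2a2 at 37.6 to 86.3 CPM against 16.2 to 20.7 CPM. In zone 4 Slc2a2 stood above the T or NK-like level in every library. It was there at 181 to 197 CPM in the littermate libraries and at 48.2 to 57.2 CPM in the others. With zone 4 in place of zone 5 the label difference changed by −1.26 along the villus (edgeR adjusted p = 2.23e-09), by −0.81 for Slc2a5 and by −0.66 for Mgam, all called. Over the alternatives, the smallest falls within zone 4 itself were −0.57 for Slc2a2, −0.17 for Slc2a5 and −0.05 for Mgam on the log2 scale. Slc2a5 and Mgam each lost their call in zone 4 under 1 alternative.

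Slc2a5 did not pass the test at the base, with a log2 fold change of 0.00 (95% interval −0.11 to 0.11) in zone 1, from 147 to 169 scaled CPM in the littermate libraries and 152 to 164 scaled CPM in the others. At the tip it was at 29.5, 33.5 and 35.5 scaled CPM against 14.4, 17.3 and 17.5 scaled CPM, a log2 fold change of −1.07 without overlap. Its zone 5 CPM stood at 1.68 to 3.42 times the T or NK-like level of the same library. T or NK-like cells held Slc2a5 at 10.4 to 17.4 CPM in the littermate libraries and at 3.56 to 6.96 CPM in the others. The part of this background in the difference was not tested. The ends differed by −1.08 (SE 0.106, edgeR adjusted p = 3.33e-10).

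Mgam, too, passed at the tip and not at the base. In zone 1 it was at 1658 to 1854 scaled CPM against 1793 to 1957 scaled CPM, with overlap. In zone 5 it was at 428, 429 and 387 scaled CPM against 223, 251 and 281 scaled CPM, a log2 fold change of −0.80 without overlap. Its zone 5 CPM stood at only 1.3 to 2.2 times the T or NK-like level of the same library. T or NK-like cells held Mgam at 145.5 to 287.1 CPM in the littermate libraries and at 117.2 to 125.2 CPM in the others. The part of this background in the difference was not tested. The ends differed by −0.89 (SE 0.0928, edgeR adjusted p = 1.26e-05).

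For Slc5a1 the ends differed by −0.39 (edgeR adjusted p = 9.6e-05), from −0.04 in zone 1 to −0.42 in zone 5. Khk differed by −0.23 between the ends (edgeR adjusted p = 0.0253), a call lost without littermate replicate 2 or without any 1 of the libraries labelled IE-HuR-/-. Treh differed by 0.25 in the other direction (edgeR adjusted p = 0.00291), with −0.15 in zone 1 and 0.10 in zone 5, and was not called with zone 4 in place of zone 5. For Lct the log2 fold change lay between −0.88 and −0.67 in all 5 zones, and its ends differed by −0.09 (95% interval −0.22 to 0.03, edgeR adjusted p = 0.311). Sis had a wide interval at the ends (−0.99 to 0.41, edgeR adjusted p = 0.535).

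Of the 8 members, 4 were lower in zone 1, 4 in zone 2, 7 in zone 3, 7 in zone 4 and 6 in zone 5, and none was higher in any zone. The shares of all genes tested that were lower were 19.6%, 20.6%, 22.2%, 25% and 23.3% in the same order. Lct, Slc2a2 and Khk were lower in every zone, with Slc2a2 in zone 5 not told apart from background. Khk lost its call without littermate replicate 3 in zones 1 and 2 and without IE-HuR-/- replicate 3 in zone 1. It also lost its call under 1 alternative in each of zones 3, 4 and 5. The smallest falls of Khk over the alternatives were −0.0085, −0.0169 and −0.0939 on the log2 scale in zones 2, 3 and 4. Sis was lower in zone 4 alone, at −0.16, a call lost without littermate replicate 1 or 2 or IE-HuR-/- replicate 2, and turned to 0.47 with position limits common to all libraries. The calls of Slc2a5 in zone 2 and of Treh in zones 1 and 3 were also lost without any 1 of 3 or 4 libraries.

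The landmarks themselves differed between the labels, which touches every value by height. The summed level of the 8 tip landmarks was 6277 to 7046 scaled CPM in the littermate libraries and 9843 to 11020 scaled CPM in the others, with 7 genes higher and 0 lower without overlap (6 and 1, Creb3l3, in unscaled CPM), and Ada and Clca4a made up 37.4% and 34.7% of it. The 10 lower-villus landmarks summed to 1163 to 1223 against 1262 to 1349 scaled CPM, with 4 higher and 3 lower without overlap, and overlapped in unscaled CPM (1248 to 1306 against 1174 to 1273 CPM). In zone 2 the median tip share of the landmark UMIs was 46.3 to 53.9% against 60.0 to 64.5%, and in zone 3 it was 73.3 to 76.5% against 84.8 to 88.9%. In zone 4 it was 93.2 to 94.4% against 96.7 to 97.3%. Zones of equal rank were therefore not of equal landmark share. With position limits common to all libraries, the ends differed by −0.56 for Slc2a2, −0.62 for Slc2a5 and −0.33 for Mgam, each still called, while Slc5a1 (0.13) and Khk (0.08) lost their call and changed sign, and Lct was called at 0.24.

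**Figure D3:**
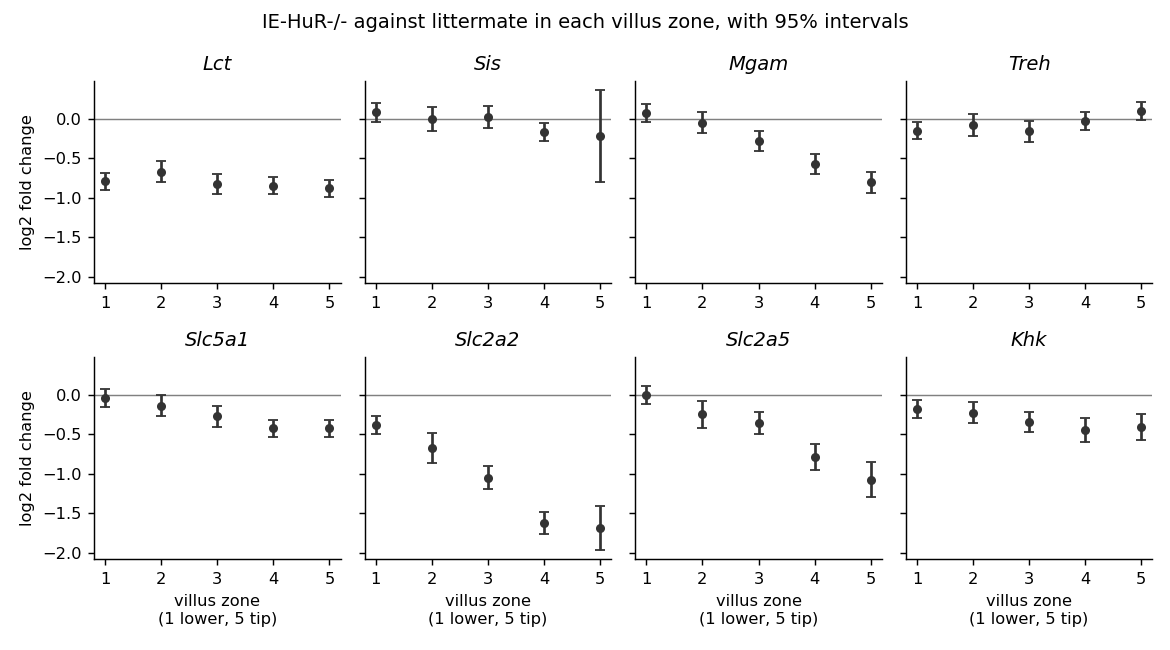
Log2 fold change of IE-HuR-/- against littermate (vertical axis, shared by all panels) in each villus zone (1 lower villus, 5 tip) with 95% intervals computed from the edgeR test. Slc2a2 runs from −0.38 to −1.62 in zone 4 and −1.69 in zone 5, where its level is not told apart from background. Slc2a5 runs from 0.00 to −1.07, while Lct stays between −0.67 and −0.88.

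Genes that mark the ileum moved with the label as well. Fabp6, the ileal bile acid binding protein gene, was at 645 to 688 scaled CPM in enterocyte-like cells of the littermate libraries and at 3079 to 3338 scaled CPM in the others. The summed level of 6 distal genes was 2449 to 2534 against 5584 to 6006 scaled CPM, with 3 higher and 2 lower without overlap. Of 6 proximal genes, 4 were lower without overlap, 1, Fabp1, was higher and 1, Gata4, overlapped, with sums of 7894 to 8424 against 9541 to 10420 scaled CPM. Fabp1 alone made up 92.9% of the proximal sum, and Fabp6 and Clec2h made up 44.4% and 39.0% of the distal sum. In unscaled CPM, 3 distal and 5 proximal genes were lower. The labels do not state which length of the intestine each library holds. Cells with at least 0.05% of their UMIs on Fabp6, called Fabp6-high, made up 7.71 to 7.96% of enterocyte-like cells in the littermate libraries and 19.8 to 20.3% in the others. This limit was chosen after the values had been seen, and both strata were then fitted separately.

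In Fabp6-low cells the same 6 genes were lower and called as in all enterocyte-like cells, where 30.5% of all genes tested were lower. That share is not given for Fabp6-low cells alone, so that the count has no background of its own. Lct was at 1076 to 1160 scaled CPM in the littermate libraries and at 720.2 to 741 scaled CPM in the others (log2 fold change −0.63, edgeR adjusted p = 7.14e-16). Slc2a2 was at 439.7 to 485 against 314 to 336 scaled CPM (−0.50, edgeR adjusted p = 9.05e-13). Slc5a1, Khk, Mgam and Slc2a5 followed at −0.22, −0.19, −0.17 and −0.15, and Sis and Treh were at 0.02 each.

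In the littermate libraries Lct was at 1142 to 1226 CPM in Fabp6-low and at 492 to 531 CPM in Fabp6-high cells, and Slc2a2 at 467 to 513 and 105 to 137 CPM. Between labels, Lct in Fabp6-high cells was at 442, 477 and 467 scaled CPM in the littermate libraries and at 189.8, 172 and 161 scaled CPM in the others, which is a log2 fold change of −1.41. Slc2a2 was at 94.3 to 123 scaled CPM against 60.9 to 63.0 scaled CPM, a log2 fold change of −0.86. In unscaled CPM Slc2a2 was at 105 to 137 against 54.1 to 57.1 CPM in these cells. T or NK-like cells held 37.6 to 86.3 against 16.2 to 20.7 CPM of it, and the part of this background was not tested. Neither gene overlapped between labels.

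Slc5a1 changed direction in Fabp6-high cells. It was at 1339, 1387 and 1429 scaled CPM in the littermate libraries and at 2123, 2028 and 1955 scaled CPM in the others. The log2 fold change was 0.56 (SE 0.0521, edgeR adjusted p = 4.17e-10), against −0.22 in Fabp6-low cells. In unscaled CPM the libraries also did not overlap (1489 to 1588 against 1739 to 1884 CPM).

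In the test of the difference between strata, 3 of the 8 members were higher and 3 lower in the Fabp6-high cells, against 11.6% and 10.4% of all genes tested. The difference was 0.79 for Slc5a1, 0.30 for Sis and 0.30 for Mgam, and −0.76 for Lct, −0.34 for Slc2a2 and −0.18 for Khk (highest edgeR adjusted p = 0.0279, for Khk, whose call was lost without any 1 of 5 libraries). Sis rose by 0.30 in Fabp6-high cells, but its unscaled CPM overlapped (1617 to 1897 against 1629 to 1763 CPM), and without TMM scaling the difference between strata was 0.13 and not called. Within the Fabp6-high stratum, Fabp6 itself was at 7920 to 9067 against 17380 to 18420 scaled CPM, so that the stratum was not alike between labels. Its part in these differences was not tested. Fabp6 also fell with villus height, from a mean of 1154 CPM in zone 1 to 64.2 CPM in zone 5 of the littermate libraries. In the libraries labelled IE-HuR-/- it fell from 5698 to 638 CPM. The Fabp6 strata and the villus zones are therefore not separate splits of the cells, and the part of height in the difference between strata was not tested.

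**Figure D4:**
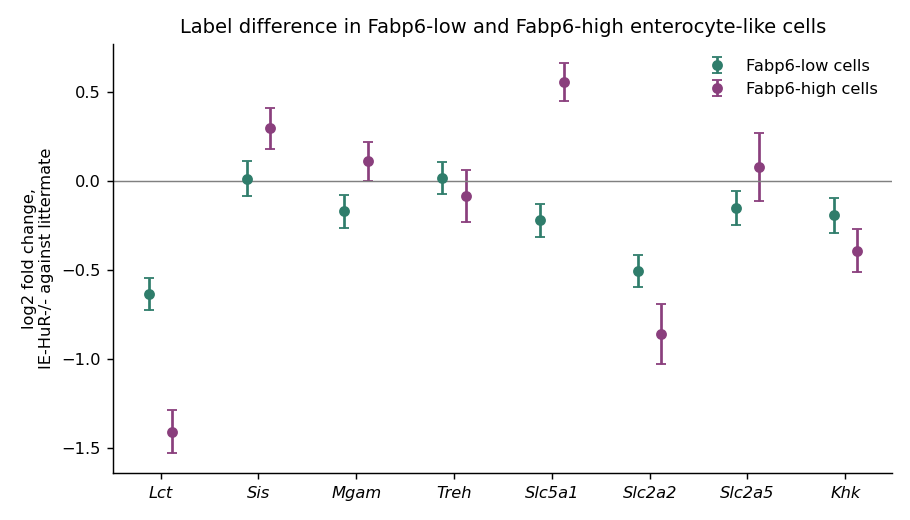
Log2 fold change of IE-HuR-/- against littermate (vertical axis) for each gene in Fabp6-low (green) and Fabp6-high (purple) enterocyte-like cells, with 95% intervals computed from the edgeR test. Slc5a1 lies at −0.22 and 0.56, on either side of the zero line, and Lct at −0.63 and −1.41.

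Against progenitor-like cells of the crypt, all 8 members were higher in enterocyte-like cells, where 41.4% of all genes tested were. This gave a log2 fold change of 5.85 for Lct, 5.04 for Slc2a2, 4.97 for Treh, 4.55 for Slc5a1, 4.47 for Sis and 4.29 for Slc2a5 (highest edgeR adjusted p = 0.00213, for Slc2a2). Mgam and Khk had smaller steps of 2.96 and 2.81. Their CPM in progenitor-like cells had medians of 22.7% and 27.8% of the enterocyte-like level in the same library, against 2.14 to 7.89% for the other 6. T or NK-like cells held those 6 at medians of 5 to 9.52%, so that their progenitor-like medians are at or near that background. IE-HuR-/- replicate 1 stood above it, with the 6 genes at 18.3% (Lct) to 42.1% (Slc2a2) in progenitor-like cells. Its T or NK-like cells held them at 4.02 to 9.16%. The class rests on 11 to 31 cells per library, and its fold sizes move with a few cells.

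Between labels, 4 members (Sis, Mgam, Slc5a1 and Khk) had enough UMIs for a test in progenitor-like cells, and 0 passed in edgeR, 0 at an unadjusted p under 0.05 and 0 in DESeq2, where 0.213% of all genes tested passed. The intervals were wide, from −2.23 to 4.27 on the log2 scale for Sis. Sis was at 621 CPM in IE-HuR-/- replicate 1 and at 63.1 to 318 CPM in the littermate libraries, and the enterocyte marker list summed to 1463 to 4233 CPM in the littermate libraries and 7989 to 17280 CPM in the others. A difference of the size found in enterocyte-like cells was not detectable in this class, and depth, cell number and the spread between libraries cannot be told apart as the limit.

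Goblet-like cells of the IE-HuR-/- libraries had lower levels of all 8 members, where 12.6% of all genes tested were lower, and 7 of them kept their call without any 1 library. Lct was at 696, 669.7 and 729.9 scaled CPM in the littermate libraries and at 258, 252 and 209.8 scaled CPM in the others, which is a log2 fold change of −1.54 (SE 0.106, edgeR adjusted p = 1.41e-10). Slc2a2 was at 233, 244 and 283 against 117, 99.2 and 76.4 scaled CPM, a log2 fold change of −1.38. Slc2a5 (−0.93), Khk (−0.90), Treh (−0.62), Slc5a1 (−0.51), Mgam (−0.43) and Sis (−0.31) followed, in the order of their size. The call of Sis (edgeR adjusted p = 0.0434) was lost in DESeq2 (adjusted p = 0.0603) and without littermate replicate 1 or 3 or IE-HuR-/- replicate 1 or 3 (−0.30 to −0.21).

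Other enterocyte RNA also differed in these goblet-like sums. The 12 enterocyte markers summed to 43350 to 45710 scaled CPM in the littermate libraries and to 35880 to 44100 in the others, with overlap, and 6 of them were lower without overlap and 1 was higher. In unscaled CPM the sums did not overlap (47080 to 48100 against 32890 to 41630 CPM). With the goblet limit raised to 20% of UMIs, 4 of the 8 members were called (Lct, Treh, Slc2a5 and Khk), and all 8 stayed lower. The share of all genes tested that were lower is not given at this limit, so that this count has no background of its own. The part of this background in the difference was not tested.

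Levels outside enterocytes were set beside those in T or NK-like cells, taken as background. These cells had at least 2% of their UMIs on T or NK markers, under 0.35% on epithelial and under 2% on enterocyte markers. The gate thus caps the enterocyte RNA they can hold. Goblet-like, enteroendocrine-like and tuft-like cells had no such cap, so that the contrast is partly set by the gates. T or NK-like cells held the 8 genes at medians of 5 to 11.7% of the enterocyte-like CPM in the same library, and goblet-like cells at medians of 42.0 to 60.2%. In enteroendocrine-like cells 7 of the genes had medians of 32.6 to 47.1%. Sis stood apart there, at 81.8 to 113% of the enterocyte-like CPM, with a median of 96.7%. It was at 2004, 1733 and 2094 CPM in the littermate libraries and at 1368, 1629 and 1639 CPM in the others, from 244 cells in all. These shares are descriptions without a test.

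**Figure D5:**
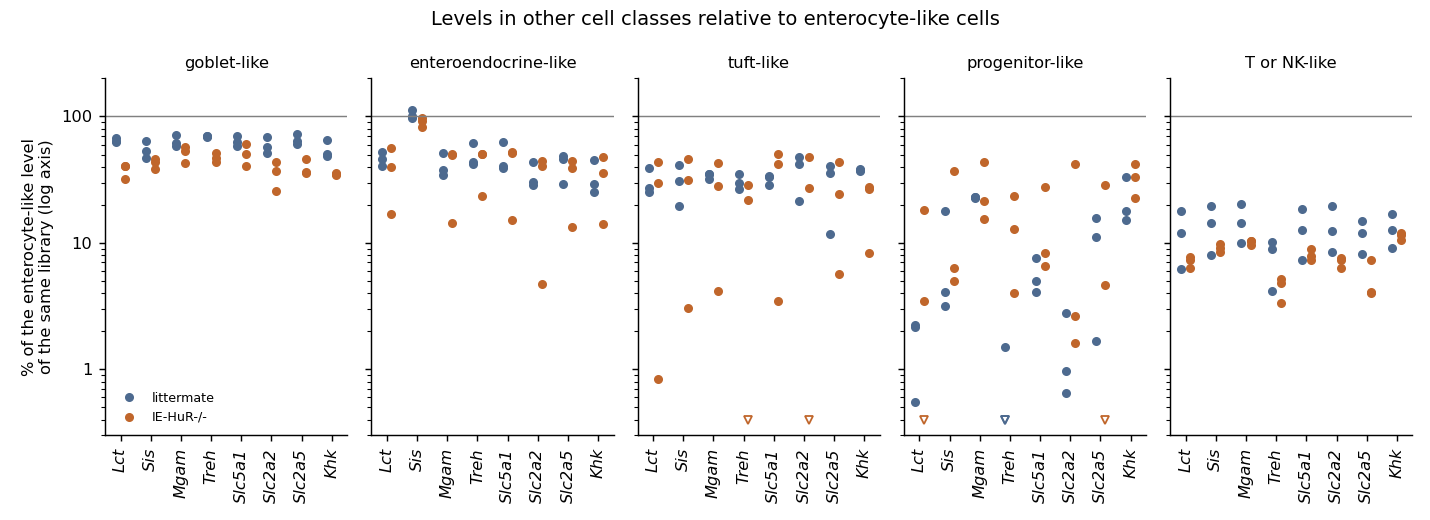
CPM of each gene in 5 cell classes as a percent of the enterocyte-like CPM of the same library (vertical log axis, grey line at 100%), with 1 point per library in the colour of its label. Open triangles at the bottom stand for 0 UMIs. Sis lies near the line in enteroendocrine-like cells (81.8 to 113%), and Mgam and Khk are the highest members in progenitor-like cells.

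The genes most like each member were sought over the 30 sums of villus zone and library, among 2544 genes of at least 50 CPM, by Pearson correlation of log2(CPM + 1). Points share libraries and depth, so that r is a description. Lct was closest to Cyp2c55 (r = 0.989), Cyp4v3 and Cyp2b10, genes of cytochrome P450 enzymes. Sis was closest to Fahd1 (r = 0.997), followed by Reep6. Mgam and Slc5a1 shared Exoc3l4 as the closest gene (r = 0.994 and 0.996), and Slc2a2 and Slc2a5 shared Slc25a45 among their nearest genes (r = 0.993 and 0.995). Khk was closest to Eci3 (r = 0.995), a gene of fatty acid oxidation. Treh had the loosest match, with H2-Q2 at r = 0.940.

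Among the members themselves, r over the same 30 sums was highest between Mgam and Slc5a1 (0.995) and between Slc2a2 and Slc2a5 (0.993). It was lowest between Sis and Treh (0.573). Lct had r between 0.778 and 0.916 with the other members.

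The rest of sugar metabolism was read from 7 lists of 89 genes in enterocyte-like cells, of which 77 were tested, 33 (42.9%) higher and 23 (29.9%) lower, where 30.1% of all genes tested were higher and 30.5% lower. All 89 symbols were found in the files. The median log2 fold change of all genes was −0.02. Other sugar transporters were mixed, with 4 higher and 4 lower of 11 tested and a median of 0.09. Slc5a11 and Slc5a9, sodium-coupled carriers related to SGLT1, fell by 0.40 and 0.34 on the log2 scale. Slc2a9 and Slc5a4b rose by 0.19 and 0.18, rises that were lost without TMM scaling, as was that of Slc2a9 in Fabp6-low cells.

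Of 6 fructose and polyol enzyme genes, 2 were higher and 2 lower, with a median of 0.04. Aldh1b1 fell by 0.28. Tkfc, which phosphorylates the glyceraldehyde made from fructose, was at 237 to 248 against 249.8 to 271 scaled CPM, a rise of 0.10 that was lost in 9 of 19 alternatives, among them without littermate replicate 2 or IE-HuR-/- replicate 2 or 3, and turned to −0.09 without TMM scaling. Of 8 galactose enzyme genes, 6 were higher and 1 lower, with a median of 0.28. Pgm2 and the galactokinase gene Galk1 rose by 0.48 and 0.33, the latter not called without TMM scaling, and Galm, the mutarotase gene, fell by 0.25.

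Most glycolysis genes were higher. Of 18 genes tested, 14 were higher and 4 lower, with a median of 0.34. Hk2, a hexokinase gene, was at 17.7, 20.2 and 19.0 scaled CPM in the littermate libraries and at 68.4, 81.1 and 74.4 scaled CPM in the others (log2 fold change 1.97, SE 0.0603, edgeR adjusted p = 5.02e-16). Aldoa rose by 0.70, and Hkdc1 fell by 0.20. Eno1 rose by 0.68 (SE 0.191, edgeR adjusted p = 0.0376), at 48.7 to 57.4 against 74.2 to 109 scaled CPM, but its call was lost in 7 of 19 alternatives, among them without any 1 of 5 libraries (all but IE-HuR-/- replicate 1). It may also share reads with the near-identical Eno1b, which makes its value uncertain.

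Most gluconeogenesis genes were lower, with 6 of 8 genes lower, 1 higher and a median of −0.42. Pck1, which commits carbon to glucose synthesis, was at 136, 142 and 138 scaled CPM in the littermate libraries and at 69.6, 64.4 and 69.1 scaled CPM in the others. The libraries did not overlap, and the log2 fold change was −1.03 (SE 0.0420, edgeR adjusted p = 1.4e-19). Fbp1 fell by 1.00 and Fbp2 by 0.24 on the log2 scale. Pcx rose by 0.14, which was lost in 7 of 19 alternatives, among them without littermate replicate 2, and turned to −0.05 without TMM scaling.

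Of 15 regulators of sugar genes, 4 were higher and 4 lower (26.7% each), near the shares of all genes. Cdx2, a homeobox factor of intestinal identity, was at 84.2, 89.9 and 88.4 scaled CPM in the littermate libraries and at 58.2, 61.7 and 61.1 scaled CPM in the others (log2 fold change −0.54, SE 0.0424, edgeR adjusted p = 2.24e-12). Mlxipl, which encodes ChREBP, fell by 0.18, and Onecut2 fell by 0.22. Arrdc4 and Txnip, which restrain glucose uptake and are known ChREBP and MondoA targets, rose by 1.75 and 1.10. Txnip went from 77.6 to 80.7 scaled CPM in the littermate libraries to 166 to 176 scaled CPM in the others, and Hnf4a rose by 0.35.

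Of 11 tested partners of SGLT1 and genes of sweet taste, 2 were higher and 2 lower. Sgk1, a kinase gene that promotes sodium and glucose transport, was at 127, 126 and 128 against 58.5, 61.2 and 57.0 scaled CPM. Its log2 fold change was −1.11 (SE 0.0413, edgeR adjusted p = 1.4e-20). Atp1b1, a subunit gene of the sodium pump, fell by 0.13, a call lost without IE-HuR-/- replicate 1, and Slc9a3r1, a scaffold gene of the apical membrane, rose by 0.35.

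Along the villus, 42 of 70 genes of these lists were lower in zone 5 than in zone 1 (60%) and 22 higher, against 44.4% and 38.7% of all genes tested. All 6 fructose and polyol enzyme genes, 7 of 10 other sugar transporters, 6 of 7 gluconeogenesis genes and 5 of 8 galactose enzyme genes were lower, with medians of −1.60, −1.90, −2.08 and −0.71, where the median of all genes was −0.11. Glycolysis genes were split, with 7 higher and 8 lower of 17 tested, as were the regulators, with 7 and 7 of 15, and the partners of SGLT1, with 3 and 3 of 7.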

How the data were processed

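Single cells of the small intestinal epithelium were profiled in 6 droplet libraries, 3 from littermate and 3 from IE-HuR-/- mice. Raw counts of UMIs in each gene and cell barcode were deposited, not normalized, for barcodes of at least 500 UMIs. The submitters' processing notes name Cell Ranger, Seurat and mm10. The labels name a 5′ kit and the methods a 3′ kit, so it is not settled which end of an mRNA was counted. Here cells of at least 2000 UMIs and 200 genes were gated on shares of UMIs on marker genes (epithelial markers at least 0.5% and enterocyte markers at least 2%), which hold no member. No doublet caller was run, and cells over the limits of several classes were left out. Counts were summed per library and class and compared with edgeR 4.0.16 in R 4.3.3 (filterByExpr at 10 UMIs and 15 in total, TMM, robust quasi-likelihood fit). Benjamini-Hochberg adjusted p under 0.05 over all genes was called. The SE and the intervals were computed from the log2 fold change and the F statistic of the edgeR test, which does not give them itself. DESeq2 1.42.0 was an alternative, and the test was run on simulated data first. Enterocyte-like sums held 38819841 to 59831793 UMIs in total. Counting error depends on the UMIs of each gene, and it was not set against the spread between libraries gene by gene. Where a symbol names 2 features, as Aldoa does, the first was used. Named genes other than the members were the 3 largest rises and falls per list among called genes of at least 20 CPM with labels not overlapping. Some genes named by these rules are not reported here. Members and lists were chosen with earlier results of these data known. Other settings tried were no TMM scaling, no count filter, other gates, depths and villus positions, a replicate block and 1 library left out. Immunostaining and organoid assays of the study were not used here.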

Additional observations from a re-analysis of the deposited data

Results flagged for a closer look

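For 6 genes the difference between labels itself differed with villus height, by a test of zone 5 against zone 1. It was −1.32 for Slc2a2, −1.08 for Slc2a5, −0.89 for Mgam, −0.39 for Slc5a1, −0.23 for Khk and 0.25 for Treh on the log2 scale. With position limits common to all libraries the values were −0.56, −0.62, −0.33, 0.13, 0.08 and 0.50 in the same order, and the landmarks that set the position also differed between labels. The zone 5 level of Slc2a2 was not told apart from background, and with zone 4 in place of zone 5 its value was −1.26.

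For 6 genes the difference between labels differed between Fabp6-high and Fabp6-low enterocyte-like cells. It was −0.76 for Lct, 0.30 for Sis, 0.30 for Mgam, 0.79 for Slc5a1, −0.34 for Slc2a2 and −0.18 for Khk on the log2 scale. The strata were formed after the values had been seen, and Fabp6 also fell with villus height. Without TMM scaling the value of Sis was 0.13 (edgeR adjusted p = 0.0788), and in DESeq2 that of Khk was −0.19 and not called.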

How the results depend on the processing

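In enterocyte-like cells, Lct, Slc2a2 and Khk kept their direction and call under all 19 alternatives (Lct −1.41 to −0.63, Slc2a2 −0.86 to −0.50). Without TMM scaling, Sis turned to −0.13, Treh was called at −0.24, and Slc2a9 (−0.00253), Slc5a4b (−0.00818), Tkfc (−0.0896) and Pcx (−0.0494) changed sign, as did Treh between the ends of the villus (−0.25), since every gene was then read against total UMIs. In zone 2, 7 of 8 members were then called, where 3373 of the 9879 genes tested were called lower and 1054 higher. Among Fabp6-high cells 4288 genes were called in place of 7543, Sis was called at 0.30, and Mgam (0.11), Slc5a1 (0.56), Slc2a5 (0.0818), Elavl1 (−0.16), Slc5a9 (0.0122), Slc5a4b (−0.64), Onecut2 (0.0416) and Atp1b1 (0.19) changed sign. The call of Mgam was lost at −0.0921 in cells of at least 5000 UMIs and when 1 library was left out (−0.11 to −0.0686 where lost, −0.14 to −0.0686 over all 6), and Treh was called at −0.13 in all epithelial cells. Raising the goblet limit left 1417 genes and 4 members called, against 2511 and 8.

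In progenitor-like cells the count of 9 genes became 22 in DESeq2, 99 without a count filter and between 2 and 39 without 1 library, and 1 member was called without the filter and 0 or 1 without 1 library (1 without IE-HuR-/- replicate 2), so that these counts have no stable value. On simulated counts the test found a minority of the changed genes in sums of this size.

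For the difference between labels along the villus, DESeq2 called 1085 genes in place of 2164. With the mean z score as position Lct was called at 0.25, and Slc5a1 (−0.16) and Khk (−0.0544) were not called. With position limits common to all libraries Lct was called at 0.24 and Slc5a1 (0.13) and Khk (0.0832) changed sign. Lct was called at −0.15 with 3 zones, and Treh was not (0.11) with zone 4 in place of zone 5. With Apoa4 and Apoa1 as landmarks Sis was called at −0.49, Treh (0.15) and Khk (−0.21) were not, and Lct turned to 0.32 between the ends of the villus. Khk was not called in DESeq2 (−0.14), without the count filter (−0.22) and without any of 4 libraries (−0.20 to −0.0868 there, −0.27 to −0.0868 over all 6). Within zones, the Apoa landmarks left 2791 genes called in zone 1, 2 members in zone 2 and Slc2a5 there at 0.0176, while common limits left 4 members in zone 3 and 3 in zone 4, with Sis at 0.47 and Slc5a1 at 0.0696 in zone 4. Without 1 library, 2 to 5 members were called in zone 1 and 2 to 4 in zone 2. In these fits 3520 to 4039 genes were called in zone 1 and 3357 to 3732 in zone 2. Shares of all genes tested are not given for these settings within zones, so that the counts of members have no background of their own. DESeq2 called 1677 genes between the Fabp6 strata, in place of 2586. The cause of these changes was not tested. Of 1700 values, 36 changed sign with no call under either setting.

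No pairing by replicate number was seen, with correlations of same-numbered libraries of 0.144, −0.126 and 0.0282 over 4531 genes. These are correlations of deviations from the mean of each label, which are tied to each other, so they cannot exclude pairing. With the replicate block, 7489 genes and 6 members were called in enterocyte-like cells and 27 genes in progenitor-like cells, with 2 of 3 numbers not correlating best with their own.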
